A study of Mus musculus with 6 samples.

Results

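Visceral endoderm, the extraembryonic epithelium that wraps the early mouse embryo, serves as its first liver and gut by secreting lipoproteins and plasma carrier proteins. The 10 genes described here encode such secreted proteins, or in 1 case the transfer protein that loads them with lipid, and were taken from the count table by name: Apoa1, Apoa2, Apoa4, Apob, Apoe, Apom, Mttp, Afp, Ttr and Trf. All 10 were found among 24421 gene entries. They were measured in mouse induced pluripotent stem cells (iPSCs), differentiated cells returned to a pluripotent state. Of the 6 bulk RNA libraries, 3 came from cells with both Srf alleles deleted (SRFΔ/Δ, labelled SRF KO and called the knockout here) and 3 from cells with both alleles floxed (SRFf/f, WT). Both were grown with serum. SRF, serum response factor, is a transcription factor of cytoskeletal and growth factor-induced genes. The labels do not say which Cre recombinase made the deletion, whether the replicates were separate clones or cultures, or whether feeder cells were present, so that p-values measure only the spread between these libraries, which may be technical.

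Apolipoprotein B is the structural protein of very low density lipoproteins and chylomicrons. It takes up lipid while it enters the endoplasmic reticulum, with the help of microsomal triglyceride transfer protein (Mttp), and without that step it is degraded. The smaller apolipoproteins A-I, A-II, A-IV and E sit on the particle surface and exchange between particles, and apolipoprotein M is a lipocalin that rides on them. Alpha-fetoprotein (Afp), transthyretin (Ttr) and transferrin (Trf) are soluble carriers of, respectively, small lipophilic ligands, thyroid hormone with retinol-binding protein, and iron. Afp, Ttr and the apolipoproteins are classic products of visceral endoderm, and liver makes them later under HNF4A and FOXA factors.

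The table holds whole-number read counts, which totalled between 26321602 and 36680156 per library. Levels are given as CPM, a count scaled to a common library size by trimmed mean of M values (TMM), and 3 counts, the floor used here, were between 0.0828 and 0.117 CPM. Srf itself was at 3.97 ± 0.707 CPM in the knockout and 34.5 ± 4.14 CPM in WT (SD, n = 3), 11.5% of the WT level. Across all 15611 entries tested, 20.4% were called higher in the knockout and 20.7% lower. The threshold was 0.05 on p-values of the quasi-likelihood test of edgeR, adjusted by Benjamini-Hochberg, and adjusted p-values are from that test throughout. At these rates a call alone says little, so the sizes of the differences are given with each gene.

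Promoter sequences are shown for 3 genes, the strong risers Apob and Apoa1 and the uncalled Apoa2, and not for Apoe, which fell. They were read from RefSeq (GRCm38.p6, the assembly behind mm10, which is the build in the submitters' processing notes), where 8 of the 10 genes had an entry. Entries for Ttr and Trf were not found. Each run below lies before the RefSeq start, on the plus strand, 5′ to 3′, without bases that GENCODE M21 annotates as exon. It covers chr12:7977527-7977647 for Apob, chr9:46228480-46228579 for Apoa1 and chr1:171224904-171225053 for Apoa2. Capitals mark a match to a motif reported here.
Apob: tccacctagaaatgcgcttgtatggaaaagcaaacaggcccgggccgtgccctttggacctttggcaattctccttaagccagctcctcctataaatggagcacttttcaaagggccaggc
Apoa1: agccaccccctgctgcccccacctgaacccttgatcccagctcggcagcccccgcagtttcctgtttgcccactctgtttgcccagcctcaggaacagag
Apoa2: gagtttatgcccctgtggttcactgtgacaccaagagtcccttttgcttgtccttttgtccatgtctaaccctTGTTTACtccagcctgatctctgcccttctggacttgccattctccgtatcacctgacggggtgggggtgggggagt
The motifs reported here were CAAAGTCCA for HNF4, TGTTTAC for FOXA and AGATAA for GATA factors, and the CArG box bound by SRF, each on both strands. For HNF4, FOXA and GATA factors only these exact letters were searched, and variant forms of the sites were not counted. A missing match therefore does not show that a binding site is absent. In the 250 bases before the start, 1 of the entries of Apoa2 had 1 FOXA match. No entry of the 8 genes held the HNF4 or GATA letters or a CArG box there. Apoa4, Apom and Mttp had 1 entry each. In these entries and the other entry of Apoa2, the last 150 bases before the start were all annotated as exon. The search there was therefore at least partly of exon sequence. Of the 11 entries, 9 had their last 30 bases in a transcript of the gene. Among 32851 promoters of the same length, 0.384% held the HNF4 letters, 3.17% the FOXA letters, 9.99% the GATA letters and 1.47% a CArG box.

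Of the 10 genes, 6 rose in the knockout (Ttr, Apob, Apoa1, Mttp, Apom and Trf) and 1, Apoe, fell. Apoa2 did not pass the threshold, and Apoa4 and Afp had too few reads to be tested. In bulk RNA, more cells of a type and more RNA per cell cannot be told apart. Among the rises, 5 were at least 1 on the log2 scale, which 5.27% of all entries tested reached in that direction. In the other direction 1.70% did. Apoa1, Apom and Ttr, 3 of the 6 that rose, passed the filter on low counts only through their SRF KO libraries: it asks for 0.364 CPM on unscaled totals in 3 libraries, which 0, 1 and 0 WT libraries reached. The count of rises is therefore no independent measure of a shared change. In 6 of the 8 genes tested, all SRF KO libraries lay above all WT libraries, which held for 25.3% of the entries tested. In 1 gene they all lay below, which held for 26.1%. Of the untested genes, Apoa4 was also higher in all SRF KO libraries, and Afp was at or under the floor in both groups. The plot of levels by library shows these groups gene by gene.

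**Figure D1:**
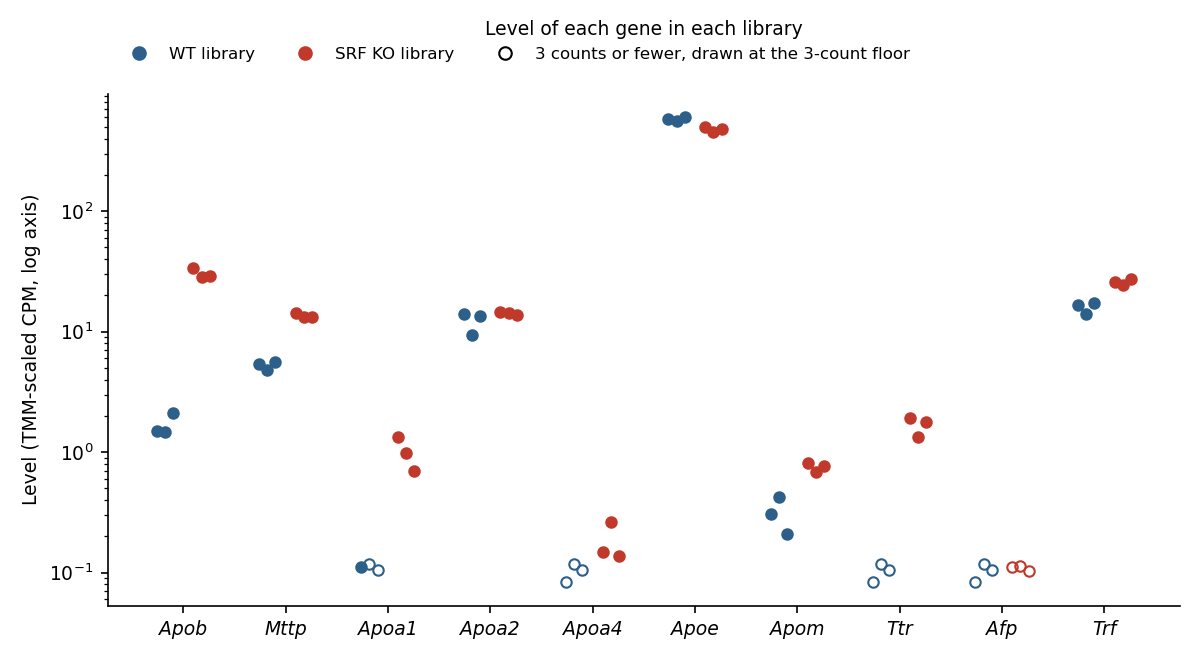
Level of each of the 10 genes in each of the 3 WT (blue) and 3 SRF KO (red) libraries, in TMM-scaled CPM on a log axis. Open circles are libraries with 3 counts or fewer, drawn at the 3-count floor of that library. The groups overlap for Apoa2 and are both at the floor for Afp, and Apoe is the 1 gene whose SRF KO values all lie below WT.

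Apob (chr12:7977648-8016835), whose product forms the particle, had 912, 753 and 833 counts in the knockout and 54, 38 and 61 in WT, in order of replicate number here and below. These are 33.9, 28.4 and 28.8 CPM against 1.49, 1.48 and 2.13 CPM, so that the lowest SRF KO library stood far above the highest WT library. Apob rose 17.9-fold, a log2 fold change of 4.16 (SE 0.13, adjusted p 8.2e-10). It was never absent from WT, where each library was well above the floor of 3 counts.

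Mttp (chr3:138089854-138144968), whose product lipidates apolipoprotein B, moved the same way by a smaller step. It had 386, 350 and 385 counts in the knockout and 195, 123 and 161 in WT, or 14.3, 13.2 and 13.3 against 5.38, 4.78 and 5.61 CPM. Mttp rose 2.59-fold, with a log2 fold change of 1.37 (SE 0.09, adjusted p 5.2e-07). Per kilobase of exon, WT held more Mttp than Apob (0.847 ± 0.0692 and 0.122 ± 0.0266 CPM per kilobase), while in the knockout they were level (2.20 ± 0.101 and 2.18 ± 0.219, SD, n = 3) with overlapping ranges. An exon of Mttp overlaps one of Trmt10a on the opposite strand, and whether counting used strand is not given in the sources used here. Trmt10a had a log2 fold change of 0.07 (adjusted p 0.406).

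Transthyretin went from nothing counted to a low but clear level. Ttr had 52, 35 and 51 counts in the knockout and 0 in each of the 3 WT libraries, or 1.93, 1.32 and 1.76 CPM. Set against a floor of 3 counts in each WT library, it was at least 16.5-fold higher (adjusted p 4.7e-06). Its partner in plasma, retinol-binding protein 4 (Rbp4, named after its values were seen), was at 1.04 ± 0.148 CPM in the knockout and 0.868 ± 0.135 in WT (SD, n = 3), with a log2 fold change of 0.25 (95% interval -0.23 to 0.72) that did not pass the threshold.

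The exchangeable apolipoproteins divided. Apoa1 (chr9:46228580-46230466), the main protein of high density lipoprotein, had 36, 26 and 20 counts in the knockout and 4, 1 and 1 in WT. All SRF KO libraries were above all WT libraries, at 1.34, 0.982 and 0.691 against 0.110, 0.0389 and 0.0349 CPM. It rose by 3.83 on the log2 scale (SE 0.47, adjusted p 5.8e-05). The ratio of summed counts, 82 against 6, was 15.0 with an exact 95% interval of 6.63 to 42.2, which covers counting error only. With values at or under 3 counts set to that floor the ratio of means was 9.08.

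Apoa4 (chr9:46240696-46243459), a surface protein of intestinal particles, had 4, 7 and 4 counts in the knockout and 0 in each WT library. These values are at most 0.264 CPM, and the filter on low counts removed the gene. Against the floor it was at least 1.81-fold higher, and in the fit with no filter its adjusted p was 0.0027. Exons of 2 unlisted genes overlap Apoa4 on the opposite strand.

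Apoa2 (chr1:171225054-171226379), the second protein of high density lipoprotein, was expressed in both groups. It had 393, 380 and 395 counts in the knockout and 508, 242 and 385 in WT, or 14.6, 14.4 and 13.7 against 14.0, 9.41 and 13.4 CPM. The groups overlapped, with WT replicate 2 low. Its log2 fold change was 0.20 (SE 0.12, 95% interval -0.07 to 0.47, adjusted p 0.230), a range from 0.950-fold to 1.39-fold. Leaving out WT replicate 2 gave 0.05.

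Apoe (chr7:19696109-19699188), a ligand by which lipoproteins bind uptake receptors on cells, was the exception in direction. It had 13399, 12071 and 13953 counts in the knockout and 21023, 14278 and 17363 in WT. These are 498, 456 and 482 CPM against 581, 555 and 605 CPM, so that all SRF KO libraries were below all WT libraries. Apoe fell by 0.28 on the log2 scale (SE 0.05, adjusted p 0.0015), to 82.5% of the WT level. Per kilobase of exon it ranked 121st among 23334 genes in WT and 148th in the knockout, and no other gene of the 10 ranked above 1845th in either group.

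Apom (chr17:35128997-35132050), the carrier of sphingosine 1-phosphate, had 22, 18 and 22 counts in the knockout and 11, 11 and 6 in WT. The groups did not overlap, at 0.818, 0.680 and 0.761 against 0.304, 0.428 and 0.209 CPM. Apom rose by 1.27 on the log2 scale (SE 0.30, adjusted p 0.0050), 2.40-fold, with a 95% interval from 1.54-fold to 3.79-fold.

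Among the soluble carriers, alpha-fetoprotein was the gene with no measurable level. Afp (chr5:90490737-90508907) had 3, 1 and 3 counts in the knockout and 0, 0 and 1 in WT, so that every library was at or under the floor and no fold is given. In the fit with no filter its adjusted p was 0.128. At this depth a difference in Afp was not detectable.

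Transferrin was higher in all SRF KO libraries. Trf (chr9:103204001-103230444) had 689, 646 and 797 counts in the knockout and 602, 357 and 495 in WT, or 25.6, 24.4 and 27.6 against 16.6, 13.9 and 17.3 CPM. It rose by 0.70 on the log2 scale (SE 0.09, adjusted p 8.1e-05), 1.62-fold. Exons of Trf overlap Gm20425, an annotated gene on the same strand that is not in the table.

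Per kilobase of exon, the order in the knockout was Apoe, Apoa2, Trf, Mttp, Apob, Ttr, Apoa1, Apom, Apoa4 and Afp. The ranges over libraries overlapped for Mttp with Apob and for Apoa1 with Apom, and lay apart between the other neighbours in this order. In WT the order was Apoe, Apoa2, Trf, Mttp, Apom, Apob, Apoa1 and Afp, with Apoa4 and Ttr at 0 counts. Ranges lay apart from Apoe down to Apoa1, and Apom stood above Apob. The order of Apoa1 and Afp in WT was not resolved, since both had WT libraries at or under the floor. The level of Apoe in the knockout was 224 ± 9.94 CPM per kilobase against 26.5 ± 0.916 for Apoa2 and 7.79 ± 0.479 for Trf (SD, n = 3).

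Summed over all 10 genes, the level was 591, 540 and 569 CPM in the knockout and 618, 585 and 644 CPM in WT. These ranges overlapped, with a log2 ratio of means of -0.12. Apoe made up 84.5% ± 0.232 of this sum of reads in the knockout and 94.2% ± 0.548 in WT (SD, n = 3). Per kilobase of exon its mean shares were 84.3% and 90.4%. Without Apoe, the other 9 genes summed to 92.8, 83.7 and 86.8 CPM in the knockout and to 37.9, 30.01 and 38.7 CPM in WT, 2.47-fold more, and the ranges were well apart. With Apob and Trf left out as well, the sum of the remaining 7 genes was 1.76-fold higher in the knockout. Per kilobase of exon, the mean share of Apob in the 10 genes went from 0.0404% in WT to 0.820% in the knockout, and that of Trf from 1.59% to 2.93%. The plot of summed levels shows both views in reads.

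**Figure D2:**
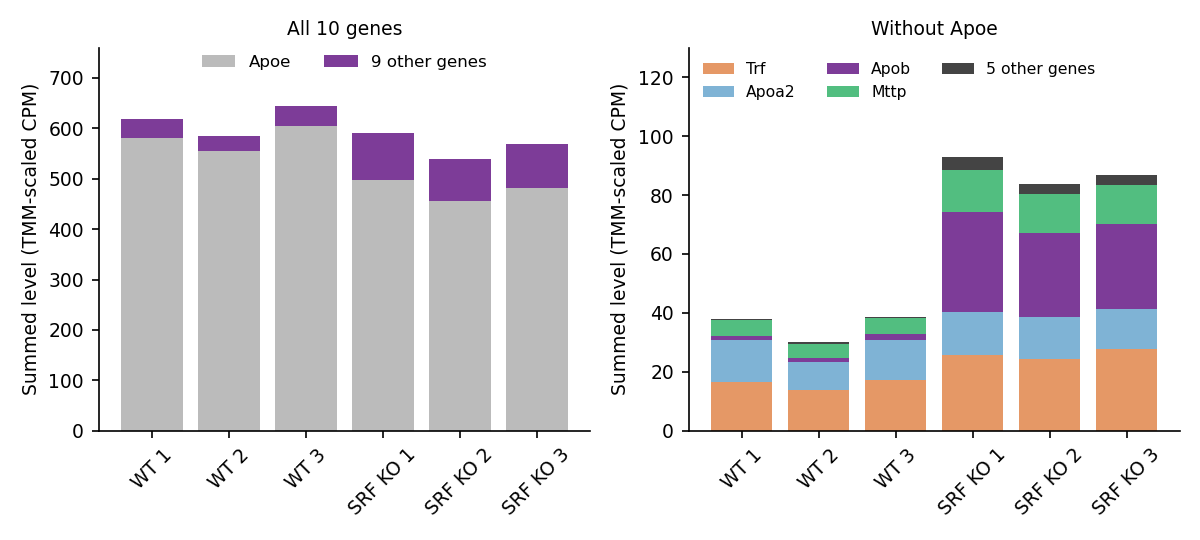
Stacked levels in TMM-scaled CPM for each WT and SRF KO library. The left panel stacks Apoe under the other 9 genes, and its full bars lie between 540 and 644 CPM with overlapping groups. The right panel leaves Apoe out and stacks Trf, Apoa2, Apob, Mttp and the 5 remaining genes, and all SRF KO bars, from 83.7 to 92.8 CPM, stand above all WT bars.

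The genomic neighbours of these genes were then examined, since several lie in clusters of related genes. Within the Apoa1 cluster, Apoc3, between Apoa1 and Apoa4, had 1 count in the knockout and 0 in WT over all libraries, and Apoa5 had 5 and 1. The genes that flank this cluster, Sik3 and Zpr1, had log2 fold changes of 0.04 and -0.06 and did not pass the threshold (adjusted p 0.597 and 0.385). Beside Afp, the albumin gene Alb had 5 counts in the knockout, all in replicate 3, and 1 in WT. Afm, on the other side of Afp, had 10 and 7. The Apoe cluster behaved differently: Apoc1 fell with Apoe, by 0.60 on the log2 scale (SE 0.10, adjusted p 0.00070), from 15.1 ± 1.56 to 9.93 ± 1.08 CPM (SD, n = 3). Apoc2 and Apoc4 were low in both groups, at 13 against 14 and 4 against 3 counts in all. Tomm40, next to Apoe, did not pass the threshold (0.07, adjusted p 0.507), while Bcam beyond it fell by 0.45 (adjusted p 0.00063).

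**Figure D3:**
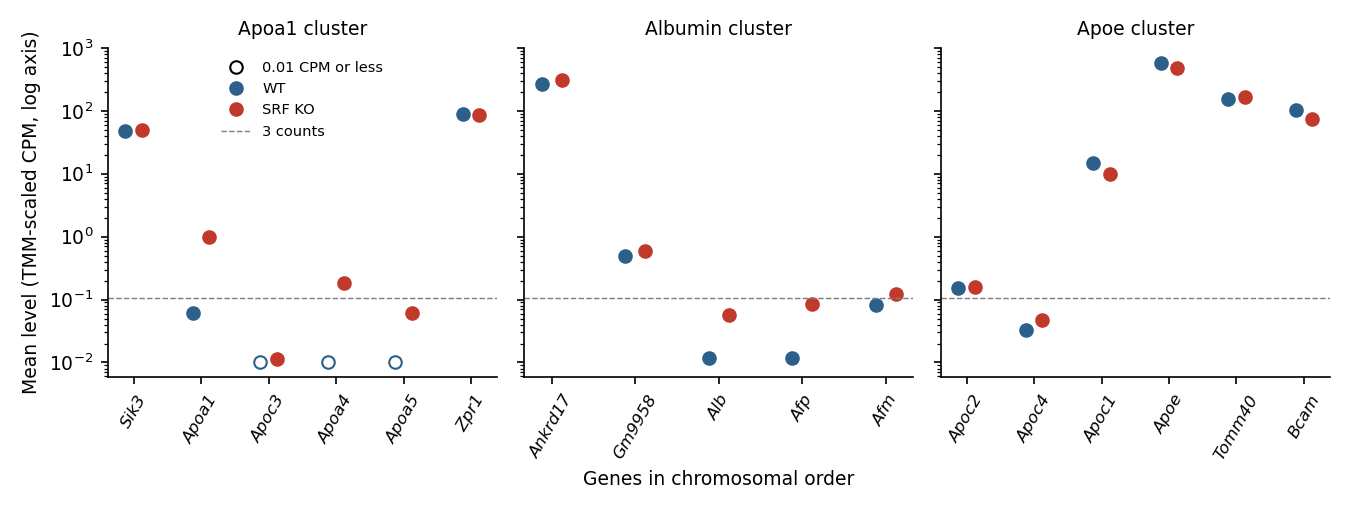
Mean level in TMM-scaled CPM (log axis) of genes in chromosomal order in 3 clusters, for WT (blue) and SRF KO (red). The dashed line is the mean 3-count floor, and open circles are means of 0.01 CPM or less. Apoa1 and Apoa4 are the cluster genes whose SRF KO mean lies above the floor and WT mean below it in the first panel, Alb, Afp and Afm stay near the floor, and Apoc1 and Apoe are lower in the knockout.

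In all, the 3 nearest listed genes on each side of the 10 came to 55 other genes, of which 37 were tested, 6 rose, 8 fell and 23 did not pass the threshold. Among all entries tested, 41.1% were called in either direction. Slco2a1, a prostaglandin transporter near Trf, was the 1 neighbour past an absolute log2 fold change of 1, at 2.36 (adjusted p 9.4e-08).

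Other genes of lipoprotein biology were taken from lists drawn from general knowledge, with 106 genes in 6 lists. Of 79 tested, 38 rose and 14 fell. Over all entries tested, 20.4% were called higher and 20.7% lower, and the calls of each list below stand beside these shares. Among the list genes that rose, 5 passed the filter only through their SRF KO libraries. The median log2 fold change over the 14778 genes tested was -0.01. The plot of fold changes by list sets the list genes beside the 10 genes.

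Of 10 other secreted apolipoproteins, 3 were tested, with a median of 1.14. Clusterin (Clu, apolipoprotein J) stood at 11.4 ± 0.412 CPM in WT and rose to 44.0 ± 2.73 (SD, n = 3), by 1.95 on the log2 scale (adjusted p 3.6e-09). Apod rose by 1.14 (adjusted p 0.0012) and Apoc1 fell as above. Apoa5, Apoc2, Apoc3, Apoc4, Apof, Apoh and Apon were removed by the filter on low counts, and Apoa5, Apoc3, Apoc4 and Apoh had 3 counts or fewer in every library.

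In the assembly and secretion list, 12 of 15 genes were tested, 6 rose and 1 fell, with a median of 0.27. Mia2, which helps large lipoproteins leave the endoplasmic reticulum, had 47, 24 and 33 counts in the knockout and 1, 0 and 1 in WT. Its ratio of summed counts was 57.3 with an exact 95% interval of 15.5 to 479 (adjusted p 1.2e-05), and with values at or under 3 counts set to that floor the ratio of means was 12.5. Mia2 passed the filter only through its SRF KO libraries. P4hb, the protein disulfide isomerase that forms the transfer complex with Mttp, rose from 431 ± 9.76 to 658 ± 13.6 CPM, by 0.61 on the log2 scale (adjusted p 1.4e-06). The cargo receptor Surf4 rose by 0.54 (adjusted p 1.4e-05), the coat GTPase Sar1b by 0.31 (adjusted p 0.0021) and Soat2, which esterifies cholesterol for particles, by 1.40 (adjusted p 3.7e-06). Sortilin (Sort1), chosen after its values were seen as the 1 gene lower, fell by 0.26 (adjusted p 0.0057). The intestinal and liver fatty acid binding proteins Fabp2 and Fabp1 had 1 count and 0 counts in all 6 libraries together.

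On the list of remodelling enzymes, lipid efflux and receptors, 21 of 27 genes were tested, 12 rose and 2 fell, with a median of 0.30. Leaving out SRF KO replicate 3 or WT replicate 1 left 9 called higher, and DESeq2 called 10. Lcat, Lpl and Angptl4 lost their calls of higher in 8, 4 and 3 of 12 alternative fits. The uptake receptors of visceral endoderm led the list. Cubilin (Cubn), which binds apolipoprotein A-I, and megalin (Lrp2), which takes up transthyretin complexes and other carriers, had log2 fold changes of 5.88 and 3.89 (adjusted p 4.2e-13 and 4.3e-12). Their partners Dab2, Amn and Lrpap1 rose by 3.68, 3.31 and 1.201 (adjusted p 4.5e-12, 6.1e-08 and 8.5e-09).

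Other plasma carriers moved both ways. Of 16 listed, 7 were tested, 3 rose and 2 fell, with a median of 0.75. Ceruloplasmin (Cp, copper) rose by 1.78 (adjusted p 5.4e-05), the vitamin D carrier Gc by 1.001 (adjusted p 0.00044) and transcobalamin (Tcn2, vitamin B12) by 0.75 (adjusted p 1.5e-05). Fetub fell by 0.85 (adjusted p 0.0061) and A2m by 0.24 (adjusted p 0.019). The call of A2m was lost on leaving out WT replicate 1 (-0.25), and likewise SRF KO replicate 2 (-0.21) or 3 (-0.23). The filter removed 9 carriers, among them Alb.

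Among iron handling genes, more fell than rose. All 11 genes were tested, 2 rose and 6 fell, with a median of -0.21. Over all entries tested, 20.4% were called higher and 20.7% lower. Leaving out SRF KO replicate 1 or 3 left 4 iron genes called lower. The transferrin receptor Tfrc was at 463 ± 25.3 CPM in the knockout and 538 ± 38.7 in WT (SD, n = 3) and fell by 0.22 on the log2 scale (adjusted p 0.015), a call lost without SRF KO replicate 1 or 3 (-0.20 in each case). The endosomal reductase Steap3 and the iron exporter Slc40a1 fell by 0.61 and 0.59 (adjusted p 0.00010 and 0.00023), and the cytosolic aconitase Aco1 by 0.26 (adjusted p 0.0017). The ferritin heavy chain Fth1 and the transporter Slc11a2 rose by 0.35 and 0.41 (adjusted p 0.00025 and 0.00026).

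Of 27 transcription factors of liver and visceral endoderm, 25 were tested, 13 rose and 2 fell, with a median of 0.52. Of the 13, Hnf4a, Foxa1, Foxa2 and Nr2f1 passed the filter only through their SRF KO libraries. Hnf4a had 125, 145 and 127 counts in the knockout and 2, 5 and 2 in WT, a log2 fold change of 5.54 (SE 0.28, adjusted p 5.3e-08). Gata4, Gata6, Sox7 and Sox17 rose by 3.95, 3.66, 3.62 and 3.57 (adjusted p 7.3e-11, 5.5e-11, 8.8e-10 and 2.3e-08). Among those that fell was the liver regulator Creb3l3 (-0.82, adjusted p 0.022), named after its values were seen. The call of Creb3l3 was lost under DESeq2 (-0.82), on leaving out WT replicate 3 (-0.61) and on leaving out SRF KO replicate 2 (-0.65).

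**Figure D4:**
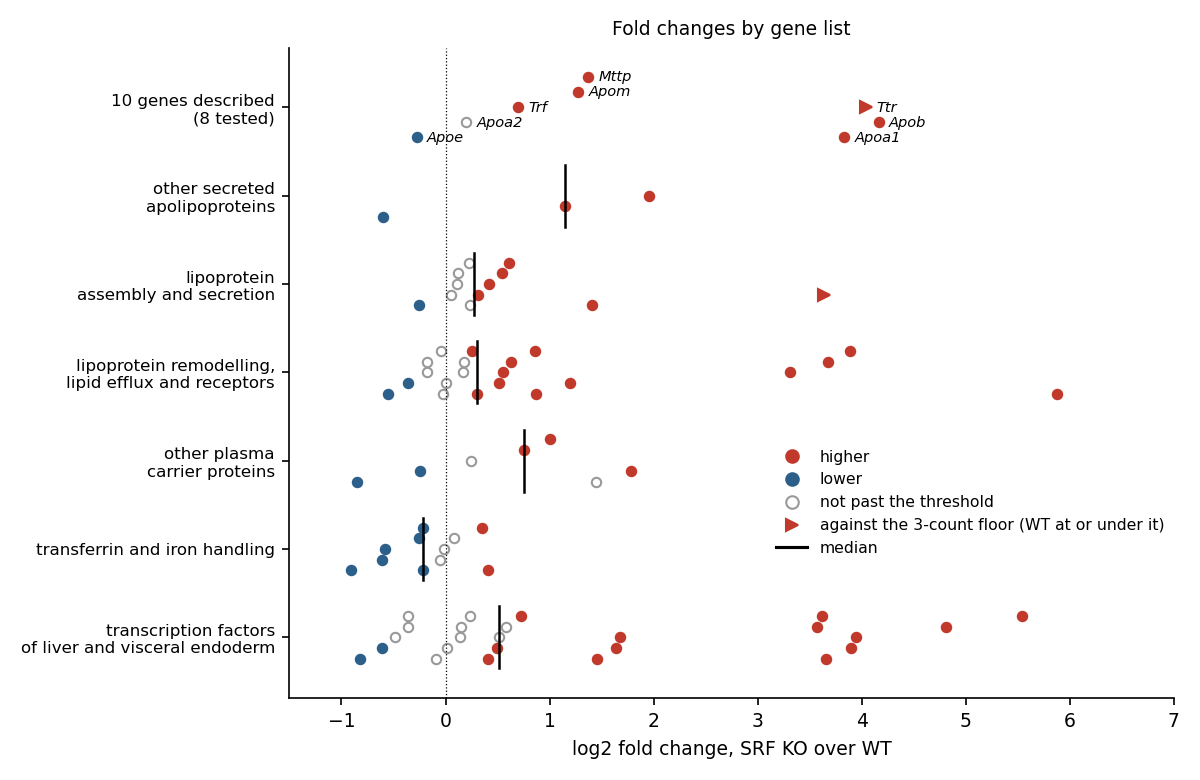
Log2 fold changes of SRF KO over WT for the 8 tested genes described here (named) and for the tested genes of 6 lists, with the median of each of the 6 lists as a bar. Filled points passed an adjusted p of 0.05, and triangles are genes whose WT libraries were all at or under 3 counts, drawn at the fold against that floor. The iron list is the 1 list with a median below 0, at -0.21.

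Marker lists were read for the cell types these libraries could hold. The calls of each marker list stand beside 20.4% of all entries tested called higher and 20.7% called lower. Pluripotency genes were abundant in both groups, summing over 10 genes to between 5433 and 5524 CPM in the knockout and between 6431 and 6942 CPM in WT. Of these genes 1 was called higher and 5 lower. The 1 higher, Zfp42 (0.17 on the log2 scale), lost its call in 4 of 12 alternative fits. Among those lower, Tdgf1 lost its call in 1. All 12 visceral endoderm markers rose, with sums of 964 to 1057 CPM against 41.2 to 44.2 CPM, and none was at the floor in all libraries. Foxa2, Hnf4a and Ihh among them passed the filter only through their SRF KO libraries. That list includes Cubn, Amn, Dab2, Hnf4a, Gata4, Gata6, Sox7 and Sox17, described above. Parietal endoderm markers, chiefly basement membrane genes such as Lamc1 and Sparc, rose in 10 of 11 cases, with sums of 4070 to 4329 CPM against 1372 to 1439 CPM. Of 6 definitive endoderm markers tested, 4 rose, Gsc and Cer1 among them having passed the filter only through their SRF KO libraries, with sums of 341 to 352 CPM against 271 to 280 CPM. Cer1 and Gsc rose by 4.55 and 1.86 on the log2 scale, and Cxcr4 and Trh by 0.40 and 0.33. The call of Cxcr4 was lost in 5 of 12 alternative fits, and Mixl1 and Eomes did not pass the threshold.

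Hepatocyte markers were near 0. All 11 were removed by the filter, 9 of them, Cyp3a11, Cyp2e1, Tat, G6pc, Cps1, Serpina1a, Tdo2 and Hpd included, had 3 counts or fewer in every library, and the list summed to at most 0.415 CPM in any library. The 4 intestinal markers tested, led by Cdx1 and Vil1, had a median log2 fold change of -0.14, and Tff3 was at the floor in every library. The list summed to between 17.3 and 21.9 CPM in the knockout and between 17.6 and 18.5 CPM in WT. Choroid plexus markers, relevant because that tissue makes Ttr, included 2 that rose and 1 that fell, with sums of 52.8 to 54.0 CPM against 28.3 to 30.3 CPM, and Kcnj13 was at the floor in every library.

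Macrophages also make Apoe, and feeder layers are fibroblasts. Of 8 macrophage markers 5 rose, with sums of 158 to 203 CPM in the knockout and 106 to 124 CPM in WT, led by Lyz2 at 129 ± 17.0 and 83.0 ± 6.21 CPM. All 11 fibroblast markers rose, with sums of 868 to 1035 CPM against 428 to 484 CPM. Apoe and Apoc1 were lower in the SRF KO libraries, and bulk sums cannot tell which cells their reads came from. The part of any of these cell types in the differences of the 10 genes was not tested.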

How the data were processed

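Counts per gene and transposable element subfamily were deposited by the authors as whole numbers without normalization, judged from the values, in a table of 6 libraries. Per the labels' protocols, reads that were empty, of low quality or adaptor sequence had been discarded. The build mm10 and DESeq2 are named in the submitters' processing notes, while aligner, counting program, annotation and strand are not given in the sources used here.

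All 24421 gene and 1146 transposable element entries entered 1 fit in R 4.3.3 with edgeR 4.0.16: filterByExpr (minimum count 10), trimmed mean of M values scaling, the two-sided quasi-likelihood test, and Benjamini-Hochberg adjustment over all 15611 entries tested, threshold 0.05. The standard error (SE) is the absolute log2 fold change divided by the square root of F. Gene positions and, for levels per kilobase, merged exons are from GENCODE M21 (GRCm38). In simulated data the test recovered the changed genes, but the share of false calls was above the 0.05 threshold. The changed genes were drawn only from entries with higher mean counts than Ttr, Apoa1 and Apom. Recovery at the depth of these genes was therefore not simulated. Intervals of summed-count ratios and floors cover counting error only, since PCR copies cannot be told from separate molecules, whereas the other 95% intervals come from the fit and include the spread between libraries.

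The 10 genes and the lists were chosen with earlier results of these data known. Named list genes are the up to 5 with the smallest p per list among those past the threshold, with Tfrc, Hnf4a, Cubn, Lrp2 and Alb, and of each marker list the genes at the floor and up to 2 of the most abundant. Further genes were picked with their values known. Some genes that this rule names, and 1 motif searched, are not reported here. Alternatives were DESeq2 1.42.0, other scalings, no filter, gene entries alone, stricter thresholds, a replicate block and leaving out each library.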

Additional observations from a re-analysis of the deposited data

How the results depend on the processing

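For the 8 genes tested, all 12 alternative fits kept the direction and the call of each gene. These fits were DESeq2, 2 other scalings, no filter, gene entries alone, a replicate block and 6 that each left out one library. Across them Apob was between 4.06 and 4.35 on the log2 scale, Mttp between 1.32 and 1.41, Trf between 0.62 and 0.75, Apom between 1.07 and 1.51, Apoa1 between 3.56 and 4.60 (4.60 without WT replicate 1, the library with 4 of its 6 WT counts) and Apoe between -0.31 and -0.24. Apoa2 was never called, between 0.05 and 0.31, with adjusted p from 0.0909 to 0.598. Same-numbered libraries had correlations of deviations from the group means of 0.0474, 0.279 and 0.148, and 4 of the 6 libraries correlated best with their own number. These values do not exclude a structure shared by number. The main fit did not take the numbers as pairs. The replicate block gave 3721 entries higher and 3991 lower against 3181 and 3233 without it, and, of the genes described, 6 genes higher and 1 lower, as without it, and Apoe at -0.28.

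A minimum size of 1 on the log2 scale, beside the adjusted p, left, by construction, 5 genes higher and 0 lower, without Trf (0.70) and Apoe (-0.28). It lowered the calls of the lists too, to 2 higher for assembly and secretion, 5 higher for remodelling and receptors and 0 higher for iron handling, and to 0 lower for each of the 6 lists. Those counts of 0 were also 0 at an unadjusted p under 0.05 in edgeR and under DESeq2. Plasma carriers lower were 1 at an adjusted p under 0.01 and between 1 and 2 when one library was left out. Transcription factors lower were 1 at an adjusted p under 0.01, 1 under DESeq2 and between 1 and 3 when one library was left out. Of 52 called list genes, 43 were called in all 12 alternative fits. The log2 ratio of the summed level of the 10 genes was between -0.16 and -0.09 when one library was left out. Depth limits Afp, Apoa4, Apoa1 and Apom.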
